A study of Arabidopsis thaliana with 12 samples.

Results

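The 9 genes described here build, or signal for, the Casparian strip of the root endodermis. They were taken by gene identifier from a table of 32833 Arabidopsis thaliana genes and comprised CASP1, CASP2, CASP4, CASP5, MYB36, ESB1, the receptor gene SGN3 (listed in the table as GSO1) and the peptide precursor genes CIF1 and CIF2. All 9 passed the filter on low counts, as did 20506 genes in all. RNA of whole seedlings, 7 days old, was sequenced in 12 libraries, 3 for each of 4 groups. Untreated Col-0, the wild type, and the untreated tpst mutant formed a pair of groups, and the other 2 groups were tpst seedlings that had received the sulfated peptide hormone PSK (phytosulfokine) during 5 h, at either 100 nM or 1 µM. A time of 0 is labelled for both untreated groups, whereas the methods describe a water mock, so it is open whether they were harvested together with the PSK groups. The mutant is a single T-DNA insertion line in the Col-0 background, each library pooled many seedlings grown in liquid medium, and the methods call the replicates biological and independent without saying whether they were separate cultures, so the p-values measure the spread between these libraries.

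The Casparian strip is a band of lignin in the walls between endodermal cells that seals the space between them, so that water and ions have to cross a plasma membrane before they reach the vasculature. CASP proteins form a membrane scaffold that marks where the lignin is laid down, MYB36 is the transcription factor that switches on CASP genes and other strip genes in the differentiating endodermis, and ESB1 is a dirigent-domain protein needed for an unbroken band. The receptor kinase SGN3 binds the CIF peptides, which come from the stele and report gaps in the strip. CIF peptides are active once their tyrosine is sulfated, a step performed by TPST (tyrosylprotein sulfotransferase), the enzyme affected in tpst.

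The part of each CIF gene that encodes the secreted peptide is shown because it holds the tyrosine that TPST modifies and because CIF1 and CIF2 gave different results in these libraries. RefSeq lists 1 transcript of CIF1 and 2 of CIF2, whose coding sequences are 252 and 192 bases long. In the CIF1 transcript and the longer coding sequence of CIF2, the 252 bases held a single aspartate-tyrosine codon pair at codons 63 and 64. The stretch from this pair to the stop codon, 66 bases with the stop included, is given 5′ to 3′ with the aspartate and tyrosine codons in capitals. Both stretches lie on the plus strand of the RefSeq genome sequence TAIR10.1, CIF1 at chr2:7095492-7095557 and CIF2 at chr4:16529893-16529958.
CIF1: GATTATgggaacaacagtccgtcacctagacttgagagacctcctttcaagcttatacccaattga
CIF2: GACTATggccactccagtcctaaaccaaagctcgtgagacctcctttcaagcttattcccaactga
The stretches shared 51 of 66 bases (77.3%) and 10 of 22 codons. Over longer stretches, the best match of the CIF2 transcript in the CIF1 gene was 78.2% identical over 124 bases.

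The deposited counts summed to between 17066292 and 24948416 per library. TPST (AT1G08030, TAIR10 chromosome 1, 2489409 to 2493327, minus strand) stood at 16.9, 17.03 and 17.3 CPM (a count per library size, where TMM factors correct that size for library composition) in Col-0 and at 6.70, 7.61 and 8.14 CPM in tpst. The mutant libraries were thus lower without overlap, in accord with their label (log2 difference 1.19, SE 0.126, edgeR adjusted p = 4.84e-08). The library Col-0 replicate 3 was unlike its replicates. A chi-square over the genes that reached a minimum count in a pair was divided by its degrees of freedom. It gave 14.2 and 15.5 for the pairs with Col-0 replicate 3 and 2.88 to 4.79 for the remaining pairs of replicates. Col-0 replicate 3 was the lowest of its group for 4 of the 9 genes and the highest for 2. Leaving it out changed none of the 6 calls of the 9 genes in the comparison of Col-0 with tpst.

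The first comparison asks how the strip genes differ between wild type and a mutant without normal tyrosine sulfation. CASP1, CASP2, CASP4, CASP5, SGN3 and CIF2 were higher in Col-0 than in tpst, whereas MYB36, ESB1 and CIF1 did not pass the test. The differences ran from 1.71-fold for SGN3 to 10.3-fold for CASP5. A gene was called at an edgeR adjusted p under 0.05 over all tested genes. Thus 6 of 9 genes were called higher in Col-0 and 0 were called lower, where 14.6% of all tested genes were called higher and 13.3% lower. The same 6 genes had all 3 Col-0 libraries above all 3 tpst libraries, as had 20.5% of all tested genes. Of the 9 genes, 5 were also at least 2-fold higher, where 5.44% of all tested genes were. The median log2 difference of the 9 genes was 1.06, and that of all tested genes was -0.00. The CPM of the 9 genes added up to between 73.8 and 81.8 in the Col-0 libraries and between 31.8 and 36.0 in the tpst libraries.

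**Figure D1:**
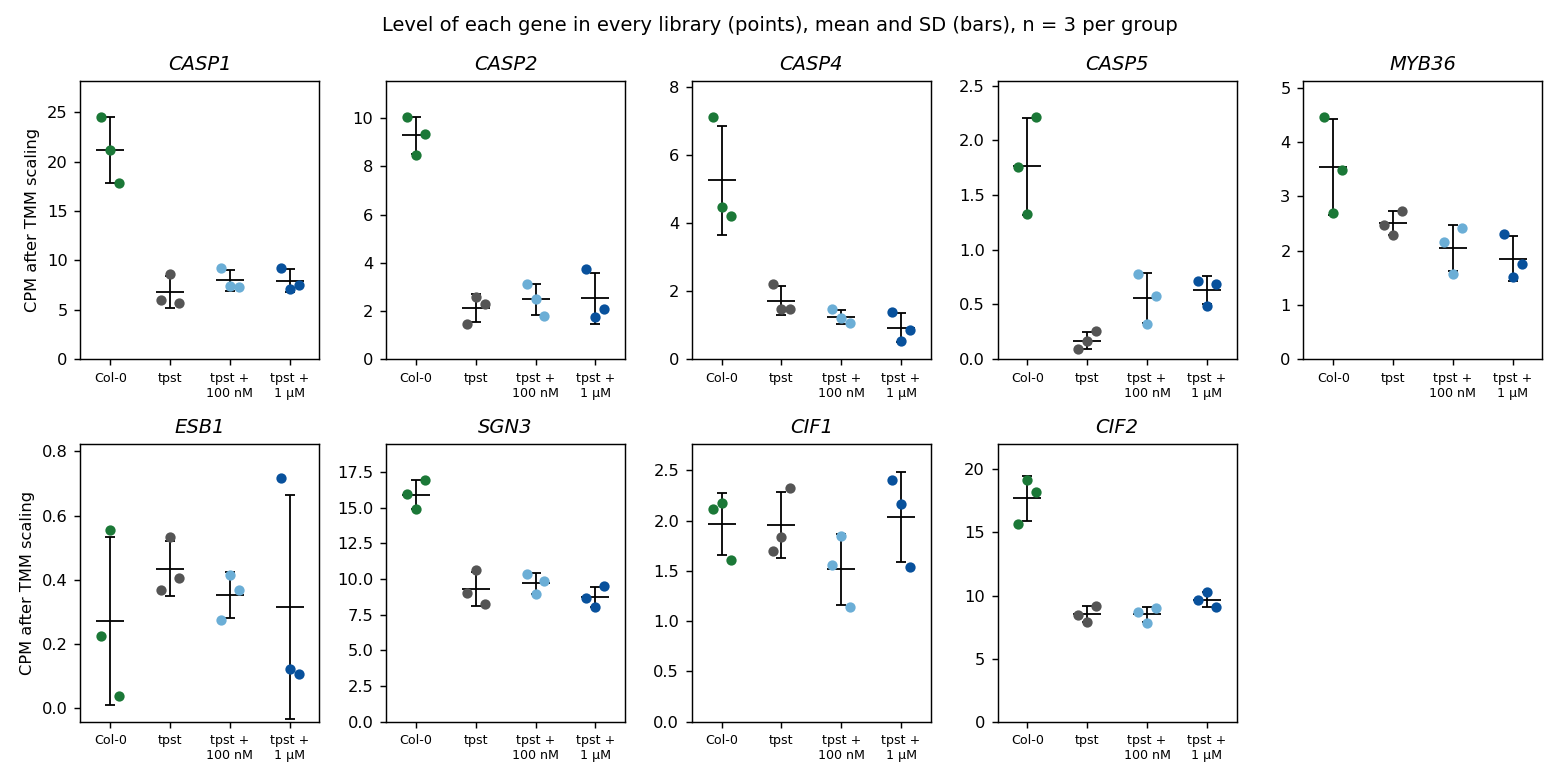
Level of each of the 9 genes in every library, in CPM after TMM scaling on the y axis of each panel, by group on the x axis, with points for libraries and bars for the mean and SD of 3 libraries. For CASP1, CASP2, CASP4, CASP5, SGN3 and CIF2 the 3 Col-0 points lie above all 3 points of untreated tpst, whereas those of MYB36, ESB1 and CIF1 overlap.

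CASP1 (AT2G36100, chromosome 2, 15159591 to 15160799) was the most abundant scaffold gene. It stood at 24.5, 21.2 and 17.8 CPM in the Col-0 libraries and at 5.96, 8.63 and 5.66 CPM in the tpst libraries. The groups did not overlap, and the gap between them was wider than the range of the Col-0 libraries. The mean was 21.2 ± 3.34 CPM against 6.75 ± 1.63 CPM (SD, n = 3), a 3.11-fold difference (log2 1.63, SE 0.156, edgeR adjusted p = 2.53e-08).

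CASP2 (AT3G11550, chromosome 3, 3638178 to 3639348) stood at 10.04, 8.49 and 9.33 CPM in Col-0 and at 1.47, 2.58 and 2.28 CPM in tpst. Its libraries were closely grouped in Col-0, and all tpst libraries were far below them (4.38-fold, log2 2.13, SE 0.244, edgeR adjusted p = 3.21e-07).

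CASP4 (AT5G06200, chromosome 5, 1877134 to 1878324) reached 7.11, 4.48 and 4.20 CPM in Col-0 and 2.20, 1.47 and 1.47 CPM in tpst. Replicate 1 was the highest in both groups, and the fold difference was close to that of CASP1 (3.06-fold, log2 1.61, SE 0.281, edgeR adjusted p = 7.16e-05). CASP2 and CASP4 were the most alike of the 4 CASP transcripts described (82.7% over 284 bases), and how the authors' counting treated fragments that align to several places is not given in the sources used here.

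CASP5 (AT5G15290, chromosome 5, 4967011 to 4968092) was the least abundant of the 4 CASP genes described and had the largest fold difference. Its counts were 39, 31 and 59 in Col-0 and 2, 4 and 5 in tpst, which is 1.76, 1.32 and 2.21 CPM against 0.0917, 0.164 and 0.253 CPM. With a total of 11 counts in the tpst libraries the size of the difference is loosely fixed, at 10.3-fold with a 95% interval of the log2 difference from 2.35 to 4.37 (log2 3.36, SE 0.494, edgeR adjusted p = 7.73e-06). A search of the genome with the CASP5 transcript found no match elsewhere that passed the cutoff, which does not exclude weaker similarity.

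MYB36 (AT5G57620, chromosome 5, 23334767 to 23336632), the activator of CASP genes, stood at 4.46, 2.69 and 3.49 CPM in Col-0 and at 2.48, 2.29 and 2.73 CPM in tpst. Col-0 replicate 2 lay just below tpst replicate 3, so the groups overlapped. The log2 difference of 0.50 did not pass the test (SE 0.245, edgeR adjusted p = 0.133), nor did it under any of the 19 alternatives run. Its interval reached up to 1.01, so a difference as large as that of SGN3 was not excluded by these libraries.

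ESB1 (AT2G28670, chromosome 2, 12300265 to 12302358) had few counts in every library. It had 5, 13 and 1 counts in Col-0 and 8, 13 and 8 counts in tpst, and no difference was detectable with so few (log2 -0.70, 95% interval -2.14 to 0.73, edgeR adjusted p = 0.502). The gene overlaps another annotated gene, AT2G28671, on the opposite strand over 1772 bases, and that gene had 39 counts over all 12 libraries. The strand setting of the counting is not given in the sources used here, so the ESB1 values are uncertain, and the part of this overlap in them was not tested. The ESB1 transcript is also 78.9% identical over 722 bases to a genome region that holds DIR25.

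SGN3 (AT4G20140, chromosome 4, 10883921 to 10888270) had the smallest difference of the called genes but one of the tightest. It stood at 15.9, 14.9 and 16.9 CPM in Col-0 and at 9.04, 10.6 and 8.24 CPM in tpst. The groups were well apart (1.71-fold, log2 0.77, SE 0.120, edgeR adjusted p = 1.63e-05). SGN3 shares 337 bases with AT4G20150 on the opposite strand, a gene with 48369 counts over the 12 libraries, and it is 77.0% identical over 3439 bases to its sister receptor gene GSO2. The part of either in the SGN3 counts was not tested.

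The CIF precursor genes differed from each other. CIF2 (AT4G34600, chromosome 4, 16529058 to 16530228) stood at 15.7, 19.2 and 18.2 CPM in Col-0 and at 8.49, 7.89 and 9.20 CPM in tpst. All Col-0 libraries were higher (2.08-fold, log2 1.06, SE 0.117, edgeR adjusted p = 9.72e-08). CIF1 (AT2G16385, chromosome 2, 7094743 to 7095824) stood at 2.12, 2.18 and 1.61 CPM in Col-0 and at 1.70, 1.84 and 2.33 CPM in tpst. Its groups overlapped entirely (log2 0.01, 95% interval -0.56 to 0.58, edgeR adjusted p = 0.986).

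The ratio of CIF2 to CIF1, taken on the length-scaled FPKM values, put both genes on one scale. It was 5.45, 6.47 and 8.30 in the Col-0 libraries and 3.67, 3.15 and 2.91 in the tpst libraries, so the groups did not overlap. An exact two-sided permutation test of 3 libraries against 3 gave p = 0.1, the smallest p this design allows (adjusted p = 0.225 over 9 tests of 3 ratios, which were chosen after the values were seen). The ratio of CASP5 to CASP1 was 0.0726, 0.0633 and 0.126 in Col-0 and 0.0156, 0.0192 and 0.0452 in tpst, with the same exact p of 0.1. CASP5 was thus lower relative to CASP1 in every tpst library than in any Col-0 library.

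**Figure D2:**
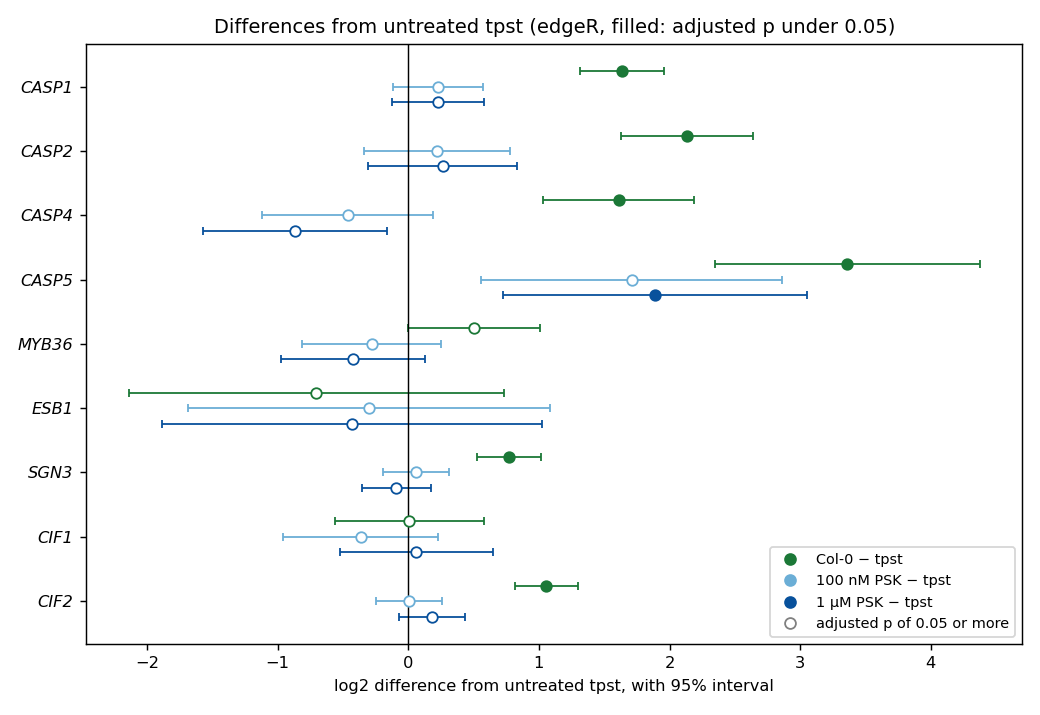
Log2 difference of each gene from untreated tpst on the x axis, with its 95% interval, for Col-0, 100 nM PSK and 1 µM PSK, and with filled points where the edgeR adjusted p was under 0.05. The Col-0 points of 6 genes are filled and lie between 0.77 and 3.36, whereas with PSK only CASP5 at 1 µM is filled, at 1.89.

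Levels between genes were compared on the FPKM of the authors, which divide by transcript length. In Col-0 the order of mean FPKM was CASP1 (23.2), CIF2 (19.6), CASP2 (9.25), CASP4 (5.13), SGN3 (3.69), CIF1 (2.96), MYB36 (2.54), CASP5 (1.96) and ESB1 (0.156). Neighbours whose libraries overlapped, and so did not differ beyond their spread, were CASP1 and CIF2, CIF1 and MYB36, and MYB36 and CASP5. In untreated tpst CIF2 (9.45) and CASP1 (7.42) still led, with overlapping libraries. CIF1 came next there (2.95), above SGN3 (2.16), CASP2 (2.102), MYB36 (1.79) and CASP4 (1.67), while ESB1 (0.249) and CASP5 (0.188) were last. From SGN3 to CASP4 each tpst gene overlapped the next. The place of ESB1 is uncertain, since the part of its opposite-strand overlap in its counts was not tested. CIF1 thus lay below CASP4 in Col-0 and above it in tpst, with no overlap in either group, at an FPKM that was nearly equal in both. Its lowest tpst library (2.56) overlapped the highest of CASP2 (2.57), which was above CIF1 in Col-0.

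**Figure D3:**
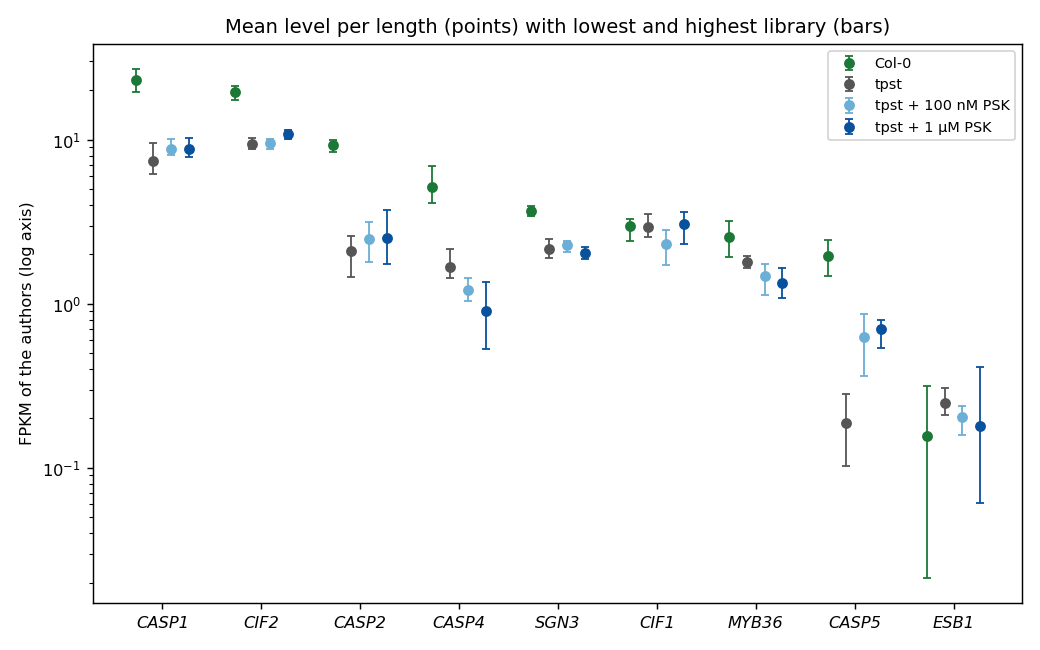
Mean FPKM of the 9 genes in each group on a log axis, in the order of their level in Col-0, with bars from the lowest to the highest of 3 libraries. By their means, the CASP genes lie below CIF1 in the tpst groups except CASP1, and in the 100 nM PSK group CASP2 as well.

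The remaining strip genes were read from pathway lists. Of all tested genes, 14.6% were called higher in Col-0 than in tpst and 13.3% lower. Of 8 tested genes of strip signalling, 4 were higher in Col-0 and 0 lower (median log2 0.37). They were the receptor-like cytoplasmic kinase SGN1, which acts below SGN3 (log2 1.36, edgeR adjusted p = 2.79e-06), TPST itself, the NADPH oxidase RBOHF (log2 0.53, edgeR adjusted p = 3.31e-05) and the co-receptor BAK1 (log2 0.20, edgeR adjusted p = 0.0367). The BAK1 call was lost under 7 of 19 alternatives, among them without Col-0 replicate 1 or 2 or without any single tpst library (adjusted p up to 0.149). The other 2 genes of the list, AT5G04030 and AT1G28375, had 0 counts in all 12 libraries.

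Genes of strip lignin and its domain showed a larger median, 1.53. Of 17 tested, 13 were higher in Col-0 and 0 lower, beside 14.6% and 13.3% of all tested genes. The largest differences were those of the dirigent gene DIR9 (log2 2.23, SE 0.167), DIR18 (log2 1.94, SE 0.260), CASPL1D2, a relative of the CASP family (log2 1.85, SE 0.216), the peroxidase gene PER72 (log2 1.85, SE 0.144) and DIR24 (log2 1.83, SE 0.147). DIR9 was nearly constant within Col-0, at 13.8, 13.6 and 13.8 CPM, and stood at 2.43, 3.72 and 2.53 CPM in tpst.

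Transcription factors that specify ground tissue and endodermis were read beside MYB36, which acts later in the same cells. Of 6 such genes 4 were higher in Col-0 and 0 lower (median log2 0.56), beside 14.6% and 13.3% of all tested genes. They were the zinc-finger genes JKD (log2 1.28, SE 0.123), MGP (log2 1.24, SE 0.205) and NUC (log2 0.51, SE 0.166), and SHR, whose protein moves from the stele into the endodermis (log2 0.60, SE 0.113). The NUC call was lost without tpst replicate 3 (edgeR adjusted p = 0.134). Of 19 tested genes of suberin, the second endodermal barrier, 14 were higher in Col-0 and 0 lower (median log2 0.90). MYB41, a regulator of suberin genes, had log2 3.11 (SE 0.563), the exporter gene ABCG6 had log2 1.30 (SE 0.126), MYB92 had log2 1.20 (SE 0.155), the fatty acyl reductase gene FAR5 had log2 1.07 (SE 0.123) and AT1G74460 had log2 0.98 (SE 0.110).

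Most markers of other root cells and of vascular cells moved in the same direction, where 14.6% of all tested genes were called higher in Col-0 and 13.3% lower. Of 14 root markers that do not belong to the endodermal barrier, 13 stood higher in Col-0 and 1 lower (median log2 1.36), and their CPM added up to between 4622 and 4850 in Col-0 and between 2792 and 2950 in tpst. Averaged over all libraries the most abundant were PYK10, a beta-glucosidase of root ER bodies that made up 4006 of the mean sum of 4755 CPM in Col-0 (log2 0.65, SE 0.0429), and the nitrate transporter gene NRT1.5 (log2 1.095, SE 0.0600). The largest differences were those of the aquaporin gene TIP2;3 (log2 3.31, SE 0.291) and the phosphate transporter gene PHT1;2 (log2 2.04, SE 0.649), the latter lost without Col-0 replicate 2, tpst replicate 1 or tpst replicate 2 (edgeR adjusted p up to 0.116). Of 10 root hair genes 8 were higher in Col-0 and 0 lower (median log2 0.89, summed CPM 93.3 to 103 against 42.5 to 60.0). Of 9 vascular genes 5 were higher and 1 was lower (median log2 0.44, summed CPM 223 to 230 against 195 to 207). The lower one was the phloem gene SUC2 (log2 -0.27, edgeR adjusted p = 0.0407), a call lost under 10 of 19 alternatives. Vascular cells are not confined to the root of these whole seedlings.

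Of 10 photosynthesis genes of the shoot, 0 were higher in Col-0 and 9 were lower (median log2 -0.31), where 13.3% of all tested genes were lower. Their summed CPM was 28169 to 30095 in Col-0 and 36378 to 37200 in tpst. No marker of these lists was at 0 in all libraries. The part of these other cells in the differences of the strip genes was not tested. In RNA of whole seedlings, fewer endodermal cells and less RNA per endodermal cell cannot be told apart.

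**Figure D4:**
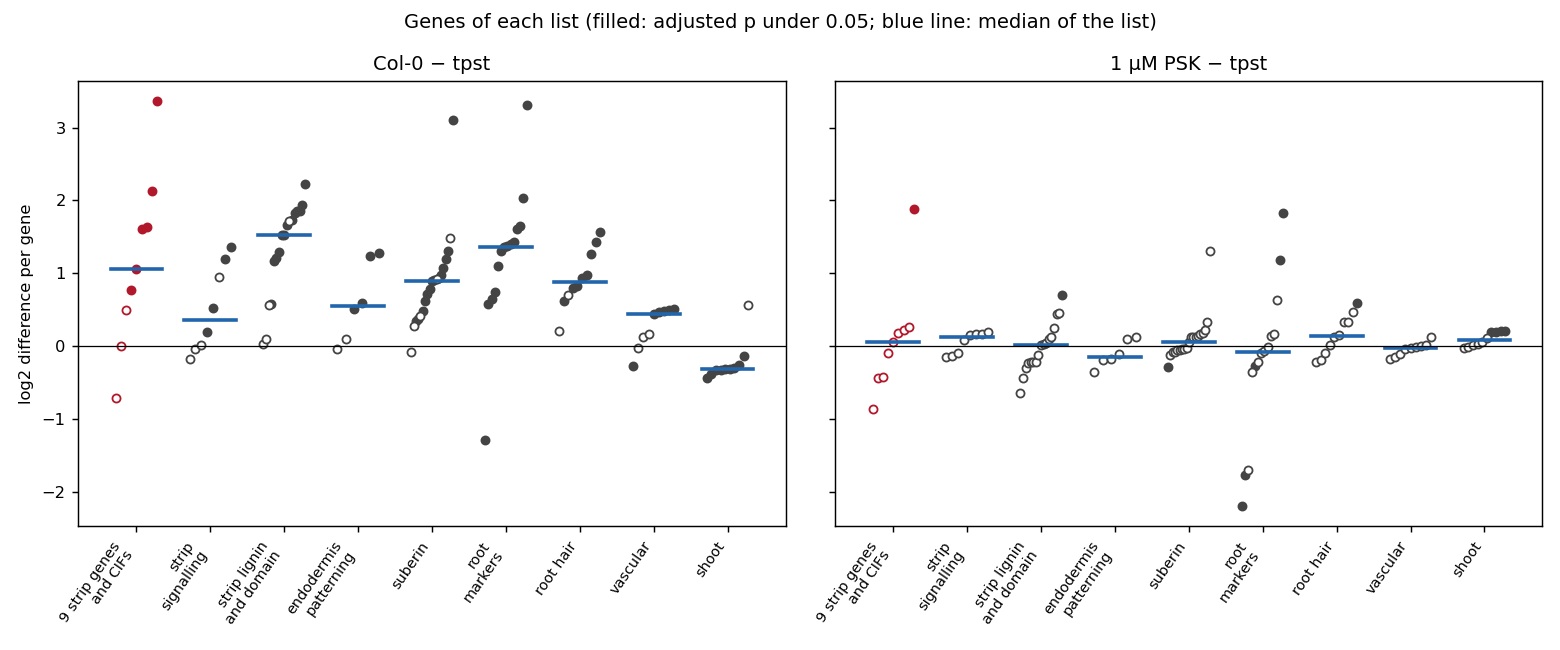
Log2 difference of each tested gene from untreated tpst on the y axis, by list on the x axis, for Col-0 in the left panel and 1 µM PSK in the right panel, with filled points at an edgeR adjusted p under 0.05 and a blue line at the list median. In the left panel the medians of the 9 strip genes (1.06), strip lignin genes (1.53) and root markers (1.36) are far above 0, and in the right panel the median of the 9 strip genes is 0.06.

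The next comparisons ask whether PSK given to tpst changes these genes within 5 h. With 100 nM PSK, 0 of 9 genes were called, where 3.2% of all tested genes were called in either direction. At an unadjusted p under 0.05 there was 1 gene, CASP5, and DESeq2 and limma voom also called 0 of the 9. Of the 20506 tested genes, 957 had a p no larger than that of CASP5. The median log2 difference of the 9 genes was 0.00. With 1 µM PSK, 1 gene was called higher and 0 lower, where 3% of all tested genes were called higher and 3.45% lower. An unadjusted p under 0.05 was found for 2 genes, CASP5 and CASP4. Of the 20506 tested genes, 2458 had a p no larger than that of CASP4. The median log2 difference of the 9 genes was 0.06. Both comparisons use the same untreated tpst libraries.

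CASP5 was the gene called with 1 µM PSK. Its counts were 2, 4 and 5 in untreated tpst, 17, 7 and 14 with 100 nM PSK and 14, 8 and 13 with 1 µM PSK. Every PSK library was above every untreated tpst library and below every Col-0 library, whose lowest count was 31. Of all tested genes, 9.7% were separated upwards from untreated tpst in this way at 100 nM and 13.5% at 1 µM. In CPM the treated libraries stood at 0.781, 0.324 and 0.572 with 100 nM and at 0.716, 0.481 and 0.689 with 1 µM.

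The log2 difference of CASP5 was 1.89 at 1 µM (3.70-fold, SE 0.566, edgeR adjusted p = 0.0427) and 1.71 at 100 nM (SE 0.561, edgeR adjusted p = 0.113). The call at 1 µM rests on a few counts and was lost under 9 of 18 alternatives: limma voom and the fits without Col-0 replicate 1, without 100 nM replicate 3, or without any single library of untreated tpst or of the 1 µM group (adjusted p 0.031 to 0.167 over the 18, log2 1.60 to 2.24). CASP5 did not pass the filter on low counts when only the 2 groups were fitted. Between the doses CASP5 did not pass the test (log2 0.18, 95% interval -0.78 to 1.13). With 1 µM PSK it remained lower than in Col-0 (2.78-fold, log2 1.47, SE 0.411, edgeR adjusted p = 0.00622).

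CASP4 lay on the other side. It stood at 1.38, 0.541 and 0.848 CPM with 1 µM PSK, below all untreated tpst libraries, and at 1.47, 1.20 and 1.06 CPM with 100 nM PSK, where the groups overlapped. The log2 difference at 1 µM was -0.87 (SE 0.341, edgeR adjusted p = 0.146) and did not pass the test. Groups of 3 libraries that did not overlap in this direction were found for 13.1% of all tested genes in this comparison.

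CASP1 and CASP2 had log2 differences of 0.23 and 0.22 at 100 nM and 0.23 and 0.26 at 1 µM, with overlapping libraries and adjusted p of 0.518 or above. For CASP1 the 95% interval at 1 µM ran from -0.12 to 0.58, which leaves out the log2 difference of 1.63 between Col-0 and tpst. MYB36 stood at 2.16, 1.57 and 2.41 CPM with 100 nM and at 2.30, 1.504 and 1.75 CPM with 1 µM (log2 -0.28 and -0.42, edgeR adjusted p = 0.751 and 0.429). ESB1 had 6, 9 and 9 counts with 100 nM and 14, 2 and 2 counts with 1 µM, too few to compare.

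The receptor and peptide genes stayed close to their levels in untreated tpst. SGN3 stood at 10.4, 8.92 and 9.85 CPM with 100 nM and at 8.70, 8.06 and 9.48 CPM with 1 µM (log2 0.06 and -0.09, 95% intervals -0.20 to 0.31 and -0.35 to 0.17). CIF2 stood at 8.68, 7.86 and 9.03 CPM with 100 nM and at 9.62, 10.3 and 9.11 CPM with 1 µM (log2 0.00 and 0.18, 95% intervals -0.25 to 0.26 and -0.07 to 0.44). All of these intervals end below the log2 difference between Col-0 and tpst of the same gene. CIF1 stood at 1.56, 1.85 and 1.14 CPM with 100 nM and at 2.41, 2.17 and 1.54 CPM with 1 µM and did not pass the test at either dose.

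Between the doses 0 of 9 genes were called, where 0.239% of all tested genes were, and 0 had an unadjusted p under 0.05 (DESeq2 and limma voom also 0). CIF2 was the gene whose 3 libraries at 1 µM all lay above those at 100 nM, as in 9.48% of all tested genes (log2 0.18, SE 0.124, edgeR adjusted p = 0.658). Col-0 was then compared with each PSK group, whose libraries are not those of untreated tpst. Against 100 nM PSK 7 of 9 genes were higher in Col-0 and 0 lower, where 15.6% of all tested genes were called higher and 14.1% lower, and 5 were at least 2-fold higher, where 5.89% were. Against 1 µM PSK 7 of 9 were higher and 0 lower, where 17.9% of all tested genes were called higher and 16.9% lower, and 4 were at least 2-fold higher, where 6.19% were. The median log2 differences were 1.05 and 0.92.

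The gene called here and not against untreated tpst was MYB36. It was higher in Col-0 than with 100 nM PSK (1.72-fold, log2 0.78, SE 0.249, edgeR adjusted p = 0.0175) and than with 1 µM PSK (1.90-fold, log2 0.92, SE 0.258, edgeR adjusted p = 0.00628). At 100 nM the call was lost without Col-0 replicate 1 or without 100 nM replicate 2 (adjusted p up to 0.119). CASP4 had the largest of these differences with 1 µM PSK (5.57-fold, log2 2.48, SE 0.312, edgeR adjusted p = 5.47e-07). CIF1 and ESB1 passed the test in none of the 6 comparisons.

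Other barrier genes were read from the same lists. Their counts at an unadjusted p under 0.05 have no share of all tested genes beside them, so no excess can be read from them. Of the strip lignin genes 2 of 17 (11.8%) rose and 0 fell with 100 nM PSK, where 3.2% of all tested genes were called in either direction, and 5 had an unadjusted p under 0.05. The called genes were DIR9 (log2 0.84, SE 0.177, edgeR adjusted p = 0.00482) and the laccase gene LAC1 (log2 0.74, SE 0.209, edgeR adjusted p = 0.0486). DIR9 stood at 5.47, 4.34 and 5.84 CPM, between the libraries of untreated tpst and those of Col-0. At 1 µM neither DIR9 nor LAC1 passed the test (log2 0.45 and 0.44, edgeR adjusted p = 0.166 and 0.272). The LAC1 call was lost under 11 of 19 alternatives, among them without Col-0 replicate 2, without 1 µM replicate 1 or 2 and without any single library of the groups compared (adjusted p up to 0.172). With 1 µM PSK 1 of 17 (5.88%) rose and 0 fell, where 3% of all tested genes were called higher, and 6 had an unadjusted p under 0.05. The called gene was UCC1, a copper protein of the uclacyanin family known from strip lignin. It stood at 3.62, 3.80 and 3.64 CPM in untreated tpst and at 5.89, 5.96 and 6.25 CPM with 1 µM (log2 0.71, SE 0.155, edgeR adjusted p = 0.00441).

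Of all tested genes, 3.2% were called in either direction at 100 nM, and 3% were called higher and 3.45% lower at 1 µM. Of the 19 tested suberin genes 3 and 2 had an unadjusted p under 0.05 at 100 nM and 1 µM, and 1 was called at each dose. MYB41 rose with 100 nM PSK, with 5, 2 and 3 counts in untreated tpst and 25, 12 and 12 counts with 100 nM (log2 2.22, SE 0.605, edgeR adjusted p = 0.0387). That call was lost with limma voom and without any single tpst library or without 100 nM replicate 1 or 2 (adjusted p up to 0.268). At 1 µM MYB41 did not pass the test (log2 1.31, edgeR adjusted p = 0.308). KCS20, an enzyme of fatty acid elongation, fell by 0.28 on the log2 scale with 1 µM PSK (edgeR adjusted p = 0.00215). At 100 nM it did not pass the test (log2 -0.17, edgeR adjusted p = 0.135). No gene of the strip signalling list (8 tested) or of endodermis patterning (6 tested) was called by edgeR, DESeq2 or limma voom with either dose. At an unadjusted p under 0.05 there were 1 and 0 signalling genes and 1 and 2 patterning genes at 100 nM and 1 µM. Of the 14 root markers 2 rose and 2 fell with 100 nM PSK, and 2 rose and 3 fell with 1 µM. Of the 9 vascular genes 0 were called at either dose (0 also with DESeq2, limma voom or an unadjusted p under 0.05). Of the 10 root hair genes 0 and 1 rose, and of the 10 shoot genes 1 and 4 rose. At 1 µM the rising genes were 14.3% of the root markers, 10% of the root hair list and 40% of the shoot list, beside 3% of all tested genes. The 3 of 14 root markers that fell at 1 µM stand beside 3.45% of all tested genes. Over 19 alternatives the number of root hair genes called at 1 µM was 0 to 1 and changed under 4.

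The genes whose pattern was most like that of the 4 CASP genes were ranked by the root-mean-square difference of centred log2 CPM over the 12 libraries from the mean of these 4 genes. An offset of 0.5 was added to the CPM before the log, which narrows the differences of genes of low level such as CASP5. The 5 closest genes outside the 9 were GA3OX2, a gibberellin 3-oxidase gene (0.128), ATSPP1, a sucrose-phosphatase gene (0.142), AT4G17280, annotated as a protein with cytochrome b561 and DOMON domains (0.149), AT5G42250, annotated as alcohol dehydrogenase-like 7 (0.152), and LOG7, a cytokinin-activating enzyme gene (0.153). GA3OX2 stood at 10.5 ± 1.56 CPM in Col-0, 3.09 ± 0.553 in tpst, 3.58 ± 1.32 with 100 nM and 3.42 ± 0.582 with 1 µM PSK (SD, n = 3). By the same measure CASP1 was at 0.141, CASP2 at 0.187, CASP5 at 0.315 and CASP4 at 0.342, which are part of the mean. CIF2 was at 0.357, SGN3 at 0.388, MYB36 at 0.477, CIF1 at 0.694 and ESB1 at 0.825.

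Promoters from 250 bases before to 50 bases after the annotated start were searched on both strands for sequences known as binding sites of MYB factors. Of the AC elements, ACCTACC was in 0 of the 9 genes and in 1.38% of 27419 promoters. The form ACCAACC was in 0 of the 9 and in 3.29% of all, and the form ACCTAAC was in CASP5 alone of the 9, 30 bases after the start, and in 2.88% of all. Any AC element was in 1 of the 9 genes and in 7.29% of all promoters. The shorter MYB core CNGTTA was in 3 of the 9 genes and in 30.3% of all promoters, and CNGTTG was in 3 of the 9 and in 6574 of the 27419. Either core was in 6 of the 9 genes, among them 2 of the 4 CASP genes, and in 46.0% of all promoters. Read on the other strand, the first core can share letters with the end of ACCTAAC. CASP1, CASP2 and CIF2 held none of these AC elements or MYB cores in the window.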

How the data were processed

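Poly(A) libraries of whole-seedling RNA were prepared and sequenced by a service company. The authors' processing trimmed reads with fastp, aligned them to TAIR10 with HISAT2 2.0.5 and assigned fragments with featureCounts 1.5.0-p3 (submitters' processing notes). The deposited table holds the authors' integer counts per gene and the FPKM that the authors computed from them by gene length and library size. Strand setting and multi-mapping are not given in the sources used here. The analysis of counts used edgeR 4.0.16 under R 4.3.3: filterByExpr (20506 of 32833 genes, 99.96% of counts), TMM scaling (factors 0.974 to 1.075), and a robust quasi-likelihood fit of all 12 libraries with 1 term per group (8 residual degrees of freedom). Tests were two-sided with Benjamini-Hochberg adjustment over all tested genes. FPKM served only for levels between genes. Errors are SD over 3 libraries, SE or 95% intervals of the fit, and depth limits genes of a few counts. DESeq2 1.42.0, limma 3.58.1 (voom), other scalings and filters, and fits without 1 library were alternatives. Gene coordinates in the table were the same in RefSeq TAIR10.1 for 32532 of 32548 matched genes. Sequences were read from that RefSeq genome.

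The members and gene lists were chosen with earlier results of these data known. Named genes were all 9 members described, TPST, up to 5 called genes of each pathway list with the largest difference between Col-0 and tpst, genes of these lists called with PSK, up to 4 genes of each marker list (the most abundant and the most different), and the 5 genes most like the mean of the 4 CASP genes described. A further gene of the rule is not reported here and was left out of counts, medians and that mean. The text names fewer where a list is given by its counts.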

Additional observations from a re-analysis of the deposited data

How the results depend on the processing

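Over 19 alternatives for single genes (other scalings, no filter, DESeq2, limma voom, a fit of only the 2 groups, a replicate block and each library left out; 18 where ESB1 or CASP5 was filtered out with only the 2 groups), no called difference of the 9 genes changed direction. Without 1 library, 6 of the 9 genes were called in Col-0 against tpst in every case, 0 with 100 nM PSK, 0 to 1 with 1 µM PSK, 0 between doses, 6 to 7 in Col-0 against 100 nM and 7 in Col-0 against 1 µM PSK. With 1 µM PSK the count was 0 with limma voom and 0 with only the 2 groups compared, where CASP5 was filtered out. A 2-fold minimum left 4 of 7 genes in Col-0 against 1 µM PSK. Over all tested genes, replicate numbers gave no clear pairing of libraries: 18 correlations of deviations ran from -0.108 to 0.103, with 1 over 0.1. Such correlations cannot exclude a replicate effect in single genes, and CASP4 was highest in replicate 1 of every group. The replicate block left the number of the 9 genes called in Col-0 against tpst at 6 and in 1 µM PSK against tpst at 1. Low counts limit what can be read for ESB1 (1 to 14 counts per library) and CASP5 in untreated tpst (2 to 5 counts). Whether depth or the opposite-strand overlap keeps the ESB1 counts low was not tested.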
